A study of Mus musculus with 12 samples.

Results

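The GIMAP GTPases (GTPases of the immunity-associated protein family) were followed across naive and activated CD8+ T cells. Members were the rows of the count table whose symbol was Gimap1, Gimap3, Gimap4, Gimap5, Gimap6, Gimap7, Gimap8 or Gimap9, and all 8 were found, each once, among 13780 listed genes. All 8 also passed the filter on low counts. GIMAP proteins share a guanine nucleotide binding domain, sit on internal membranes of lymphocytes and are best known for their part in lymphocyte survival. Their genes lie side by side in 1 cluster in mammals, and T cells transcribe several of them strongly.

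RNA was sequenced from 12 libraries of splenic CD8+ T cells of wild-type C57BL/6J mice aged 8 to 12 weeks, 4 in each of 3 groups. Naive libraries came from cells frozen straight after magnetic selection for CD8, without stimulation and without a further sort for a naive phenotype. Media libraries came from cells that spent 72 h in plain media with recombinant human IL-2 and beads carrying antibodies to CD3 and CD28. Lactate libraries came from cells stimulated in the same way with 40 mM sodium lactate added. No salt was added to the plain media, so lactate, added sodium and raised osmolality cannot be told apart in these libraries. By the donor tags, the activated cells came from 5 mice, of which 3 were sampled in both conditions.

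Total counts ran from 14726904 to 21478137 per library. Library numbers fell into a low run (3 naive, 3 media and 2 lactate libraries) and a high run (1 naive, 1 media and 2 lactate libraries). Run here means a stretch of library numbers, and the labels do not name it as a batch. The high run groups number 26 (naive) with numbers 16, 17 and 18. Transcripts of CD8 (Cd8a, Cd8b1) and of T cells in general (Cd3e, Cd3d, Trac) were present in all groups. Their summed levels were 1776 to 3566 CPM (counts scaled to library size with TMM factors) in naive, 2608 to 3230 in media and 2032 to 2517 in lactate libraries. In media against naive, Cd8b1 was called lower (-0.93, log2), Cd3e (0.81) and Cd3d (0.56) were called higher, and Cd8a and Trac were not called. In lactate against naive, Trac was called lower (-0.47), and Cd8a, Cd8b1, Cd3e and Cd3d were not called. In lactate against media, Cd3e (-0.91) and Cd3d (-0.74) were called lower, and Cd8a, Cd8b1 and Trac were not called. The part of this in the members' differences between lactate and media was not tested. The naive libraries also held transcripts of other cells. The summed B cell markers reached 467 to 1130 CPM in naive libraries, 9.03 to 16.1 in media and 5.69 to 7.65 in lactate, and all 5 were called lower in both activated groups. Myeloid markers summed to 521 to 1427, 58.2 to 74.0 and 84.6 to 96.9 CPM in the same order, with all 5 called lower. In the activated groups nearly all of this sum was Cst3, at a mean of 66.9 CPM in media and 88.5 in lactate. Lyz2, Csf1r, Itgam and Cd14 each averaged at most 0.439 CPM there. Red cell markers summed to 75.7 to 2939 CPM in naive libraries and to at most 1.74 in any activated library, with all 3 listed genes called lower. Cd4 ranged from 11.2 to 27.1 CPM in naive libraries and stayed under 1 CPM in activated ones, and the natural killer cell markers Ncr1 and Klrb1c summed to 3.13 to 8.00 CPM in naive libraries, with Ncr1 at 0 in every media library. The part of these cells in any difference from naive libraries given below was not tested, and in bulk RNA fewer cells of a type and less RNA per cell cannot be told apart.

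The 8 genes occupy 124 kb of chromosome 6 (GRCm38, 48647234 to 48770851, from GENCODE release M21), in the order Gimap8, Gimap9, Gimap4, Gimap6, Gimap7, Gimap1, Gimap5 and Gimap3. On that chromosome Gimap8 (ENSMUSG00000064262) from 48647234 to 48660875 is followed by Gimap9 (ENSMUSG00000051124) from 48676129 to 48679114, Gimap4 (ENSMUSG00000054435) from 48684549 to 48692060 and Gimap6 (ENSMUSG00000047867) from 48701582 to 48708225. Then come Gimap7 (ENSMUSG00000043931) from 48718621 to 48724636, Gimap1 (ENSMUSG00000090019) from 48739054 to 48743795, Gimap5 (ENSMUSG00000043505) from 48746197 to 48754210 and Gimap3 (ENSMUSG00000039264) from 48764464 to 48770851. Gimap6 and Gimap3 are read from the minus strand and the other 6 from the plus strand. Gimap8 has the longest coding sequence, with 2064 bases against 873 to 984 in the other members. Gimap6 and Gimap7 face away from each other, with 10.4 kb between their starts. They are shown first because they moved in opposite directions on activation. The sequence given for each is the 250 bases before the RefSeq transcript start (GRCm38.p6), read 5′ to 3′ on the strand of the gene, at chr6:48708245-48708494 (minus strand) for Gimap6 and chr6:48718371-48718620 (plus strand) for Gimap7. The stretch before Gimap3, at chr6:48770852-48771101 (minus strand), is given because it was the one in which searched motifs were found, and capitals mark them.
Gimap6: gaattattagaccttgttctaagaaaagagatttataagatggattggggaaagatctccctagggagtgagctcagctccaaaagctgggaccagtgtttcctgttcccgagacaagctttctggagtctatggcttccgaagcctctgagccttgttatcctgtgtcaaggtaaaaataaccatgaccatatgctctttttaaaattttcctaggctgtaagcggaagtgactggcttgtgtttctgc
Gimap7: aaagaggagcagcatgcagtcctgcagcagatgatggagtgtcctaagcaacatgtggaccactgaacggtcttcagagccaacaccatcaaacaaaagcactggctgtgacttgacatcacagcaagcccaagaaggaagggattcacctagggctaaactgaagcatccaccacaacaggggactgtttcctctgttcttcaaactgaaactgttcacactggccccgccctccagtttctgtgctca
Gimap3: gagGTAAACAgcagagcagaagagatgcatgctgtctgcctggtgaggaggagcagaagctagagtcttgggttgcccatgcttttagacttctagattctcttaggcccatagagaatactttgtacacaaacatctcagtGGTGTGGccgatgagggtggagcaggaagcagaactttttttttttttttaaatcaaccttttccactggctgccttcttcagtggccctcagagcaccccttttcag

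Short motifs of factors known from T cells were searched on both strands of these 250-base stretches, of which the members have 9 because RefSeq gives Gimap8 a pair of starts. The FOXO motif GTAAACA was found before Gimap3, 247 bases ahead of its start, and occurs in 3.17% of 32851 mouse promoters. The KLF motif CCACACC was found before Gimap3 as well, on the opposite strand and 108 bases ahead of the start, and occurs in 6.52% of promoters. No other member stretch held either one. The ETS motif CCGGAAG (6.91% of promoters), the RUNX motif TGTGGTT (4.40%), the TCF/LEF motif CTTTGAA (4.46%), the E-box CACGTG (6.02%), the AP-1 motif TGANTCA (6.75%) and the Ikaros motif TGGGAA (21.6%) had 0 matches in the 9 stretches. A match or its absence describes only these letters in these windows.

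Gimap3 and Gimap5 are close copies. Their coding sequences were identical at 809 of 895 aligned bases (90.4%), while every other pair of members was between 55.8% and 73.9% identical over the bases aligned. The longest run the pair shares has 140 bases and is given because reads within it could not be placed uniquely. It covers coding bases 175 to 314 of Gimap3, in 1 exon at chr6:48765681-48765820 (minus strand), and coding bases 187 to 326 of Gimap5, in 1 exon at chr6:48752684-48752823 (plus strand).
Gimap3 and Gimap5: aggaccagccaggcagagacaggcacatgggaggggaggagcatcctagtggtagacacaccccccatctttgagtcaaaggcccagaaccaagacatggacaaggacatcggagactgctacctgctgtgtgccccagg

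Of the 71-base windows of their transcripts, the read length of the study, 3.79% in Gimap3 and 4.25% in Gimap5 occur in another gene, and 95 windows are common to both. Gimap4, Gimap6, Gimap8 and Gimap9 had no such window, and Gimap7 had 0.486%. Gimap1 had 33.5%, mainly through overlap with the antisense gene Gimap1os, which covers 36.0% of its exon bases. The libraries were made with a protocol that keeps the strand (TruSeq Stranded mRNA). Whether reads were also counted by strand is not given in the sources used here. Reads of Gimap1 and Gimap1os may therefore not have been separated, and the level of Gimap1 is uncertain to that extent.

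Levels were compared between members as TPM, transcript levels that allow for gene length. In naive cells Gimap3 (1072 ± 219 TPM, SD, n = 4), Gimap4 (1001 ± 131) and Gimap6 (876 ± 38.8) led, and the ranges of neighbours in this order overlapped. Gimap8 (311 ± 35.6) and Gimap9 (250 ± 34.8) followed with overlapping ranges, and Gimap1 stood at 116 ± 8.06 TPM. At the low end, Gimap7 (86.9 ± 27.1) and Gimap5 (68.8 ± 5.84) overlapped. Gimap3, Gimap4 and Gimap6 made up 28.2%, 26.4% and 23.3% of the summed TPM of the members in naive cells.

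After activation the order changed. In media libraries Gimap4 led (1061 ± 193 TPM), followed by Gimap3 (664 ± 210), Gimap6 (380 ± 64.5) and Gimap7 (312 ± 53.4), each overlapping the next. Gimap9 (160 ± 18.7), Gimap1 (141 ± 12.7) and Gimap8 (128 ± 32.1) overlapped in a lower tier, and Gimap5 stayed last at 68.8 ± 5.22 TPM. Lactate libraries kept Gimap4 (718 ± 107 TPM) and Gimap3 (476 ± 122) at the top, with overlapping ranges. Gimap6 (256 ± 12.5), Gimap7 (220 ± 39.3) and Gimap9 (157 ± 22.1) came next, and Gimap8 (93.8 ± 16.5), Gimap1 (84.2 ± 16.7) and Gimap5 (71.1 ± 7.28) overlapped at the end. Summed over the 8 genes, the level was 3782 ± 388 TPM in naive, 2916 ± 546 in media and 2076 ± 315 in lactate libraries. The naive and media ranges overlapped (3437 to 4125 and 2370 to 3673 TPM), as did the media and lactate ranges (lactate 1763 to 2455), while naive and lactate ranges did not.

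The make-up of this RNA changed as well. Gimap6 made up 22.0% to 25.0% of the summed TPM in naive libraries, 11.4% to 15.5% in media and 10.9% to 14.1% in lactate. Gimap7 took the opposite course, from 1.15% to 2.88% in naive libraries to 10.3% to 11.6% in media and 9.95% to 11.2% in lactate. For Gimap4 the share was 26.4% ± 1.64 in naive, 36.4% ± 0.30 in media and 34.6% ± 1.61 in lactate libraries. These shares are a description, and a rise in one lowers the others.

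**Figure D1:**
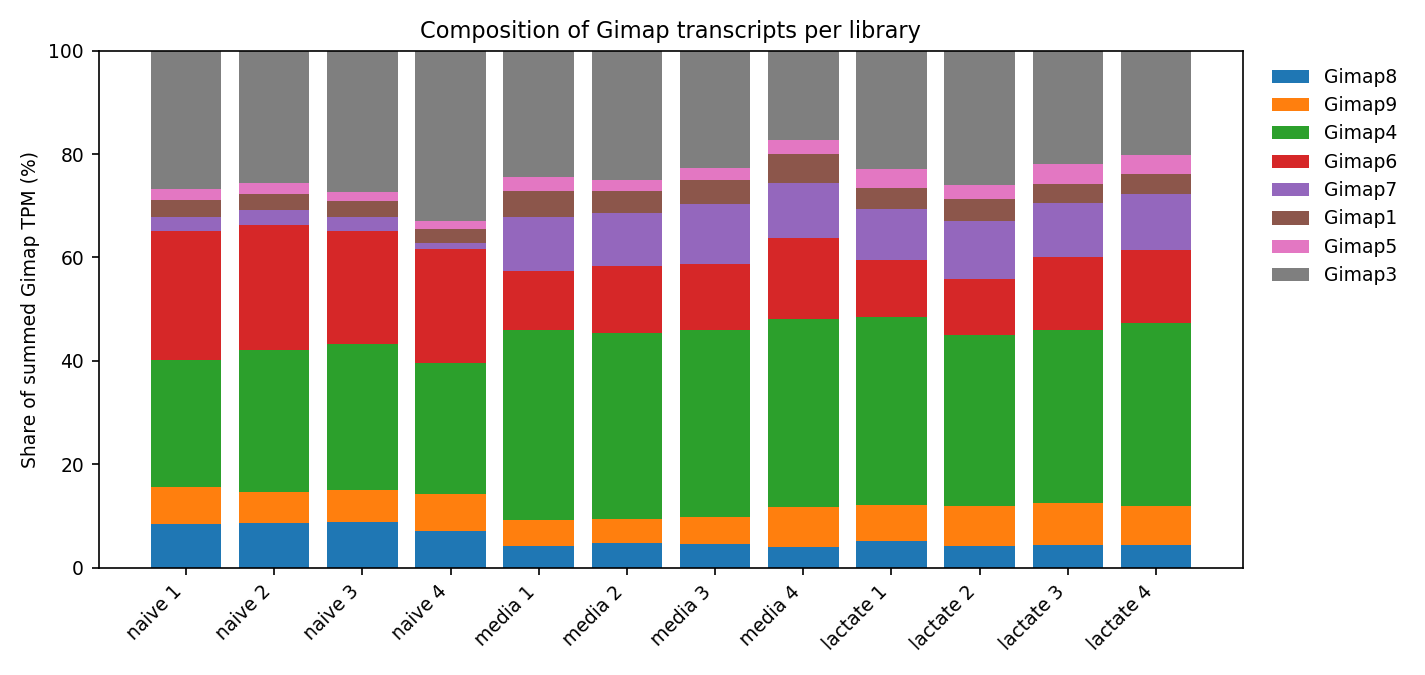
Share of each member in the summed GIMAP TPM (vertical axis, %) in each of the 12 libraries (horizontal axis), stacked in the order of the genes along the cluster. The Gimap6 part is widest in the naive libraries (22.0% to 25.0%) and the Gimap7 part in the activated ones (9.95% to 11.6%).

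Whether activation in plain media changed the members was tested in edgeR across all 13767 genes that passed the filter, with a call at an adjusted p of at most 0.01. Gimap6, Gimap8 and Gimap9 fell, Gimap7 rose, and the other 4 members were not called. Over all tested genes, 29.0% were called lower and 28.5% higher in media than in naive libraries, so 3 and 1 of 8 are not far from the background. The median log2 fold change of the members was -0.35, against -0.03 over all tested genes. The naive and media libraries did not overlap for 5 members, against 61.2% of all tested genes.

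Gimap6, whose protein binds the ATG8 family member GABARAPL2 and takes part in autophagy, stood at 880, 887, 930 and 893 CPM in naive libraries and at 315, 470, 359 and 390 CPM in media libraries. Every media library lay far below every naive one. The fitted log2 fold change was -1.23 ± 0.11 (SE), with an edgeR adjusted p of 1.24e-06. Within the low run the difference of mean log2 CPM was -1.26, and in the high run, with 1 library a side, it was -1.20.

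Gimap8, the member with several GTPase domains in 1 protein, was at 312, 336, 397 and 305 CPM in naive and at 122, 181, 135 and 107 CPM in media libraries. The groups did not overlap. Its log2 fold change was -1.31 ± 0.16 (adjusted p 1.26e-05 in edgeR), against -1.27 among low-run libraries and -1.51 between those of the high run. Gimap9 fell less, from 119, 104, 124 and 134 CPM to 65.3, 79.4, 68.7 and 90.1 CPM. All 4 media libraries again lay below all naive ones, at a log2 fold change of -0.66 ± 0.12 (adjusted p 0.000403 in edgeR).

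Gimap7, a GTPase known to act on the activity of other GIMAP proteins, was at 62.6, 70.5, 74.6 and 31.0 CPM in naive libraries and at 191, 251, 215 and 178 CPM in media libraries. The lowest media library was above the highest naive one, and naive library 4, the naive library of the high run, was the lowest. Among naive libraries, number 4 also had the lowest summed T cell and CD8 markers (1776 CPM), myeloid markers (521) and red cell markers (75.7). Its B cell markers (901 CPM), Cd4 (26.4) and natural killer cell markers (4.82) lay within the range of the other naive libraries. The part of these differences in its Gimap7 level was not tested. The log2 fold change was 1.81 ± 0.23 (adjusted p 1.91e-05 in edgeR). Without naive library 4 it was 1.59, and within the low run the difference of mean log2 CPM was 1.66. Its neighbour Gm28053, a gene model that reads through Gimap7, Gimap1 and Gimap5 on the same strand and shares 3.48% of the exon bases of Gimap7, was also called higher, at a log2 fold change of 1.96 and a mean of 1.55 CPM in naive and 6.04 in media libraries.

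Gimap3, a protein of the outer mitochondrial and endoplasmic reticulum membranes reported to bind BCL2 family proteins, just missed the threshold. It was at 694, 697, 851 and 983 CPM in naive and at 498, 678, 468 and 321 CPM in media libraries. The groups did not overlap, although the highest media library came close to the lowest naive one. The log2 fold change was -0.71 ± 0.22 (adjusted p 0.0104 in edgeR). It was -0.46 within the low run and -1.61 between the single libraries of the high run. Without naive library 2, media library 2 or lactate library 2, 3 or 4 it was called, at -0.87, -0.91, -0.71, -0.78 and -0.78.

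For Gimap5, whose loss causes lymphopenia in rats and mice, the naive libraries held 86.2, 89.8, 89.6 and 70.1 CPM and the media libraries 85.4, 86.9, 78.1 and 79.0 CPM. These values lay in the same range, with a log2 fold change of -0.03 ± 0.10 (adjusted p 0.814 in edgeR). Gimap4, which is linked to the pace of T cell death, was at 457, 533, 625 and 540 CPM in naive and 534, 696, 533 and 482 CPM in media libraries, also with overlap, and its log2 fold change of 0.06 ± 0.13 (adjusted p 0.715) was close to 0. Gimap1, needed for the survival of mature lymphocytes, was at 103, 103, 115 and 95.9 CPM in naive and 123, 139, 114 and 125 CPM in media libraries. Of these media libraries 3 were above all naive ones, and the log2 fold change of 0.26 ± 0.12 was not called (adjusted p 0.0626 in edgeR).

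**Figure D2:**
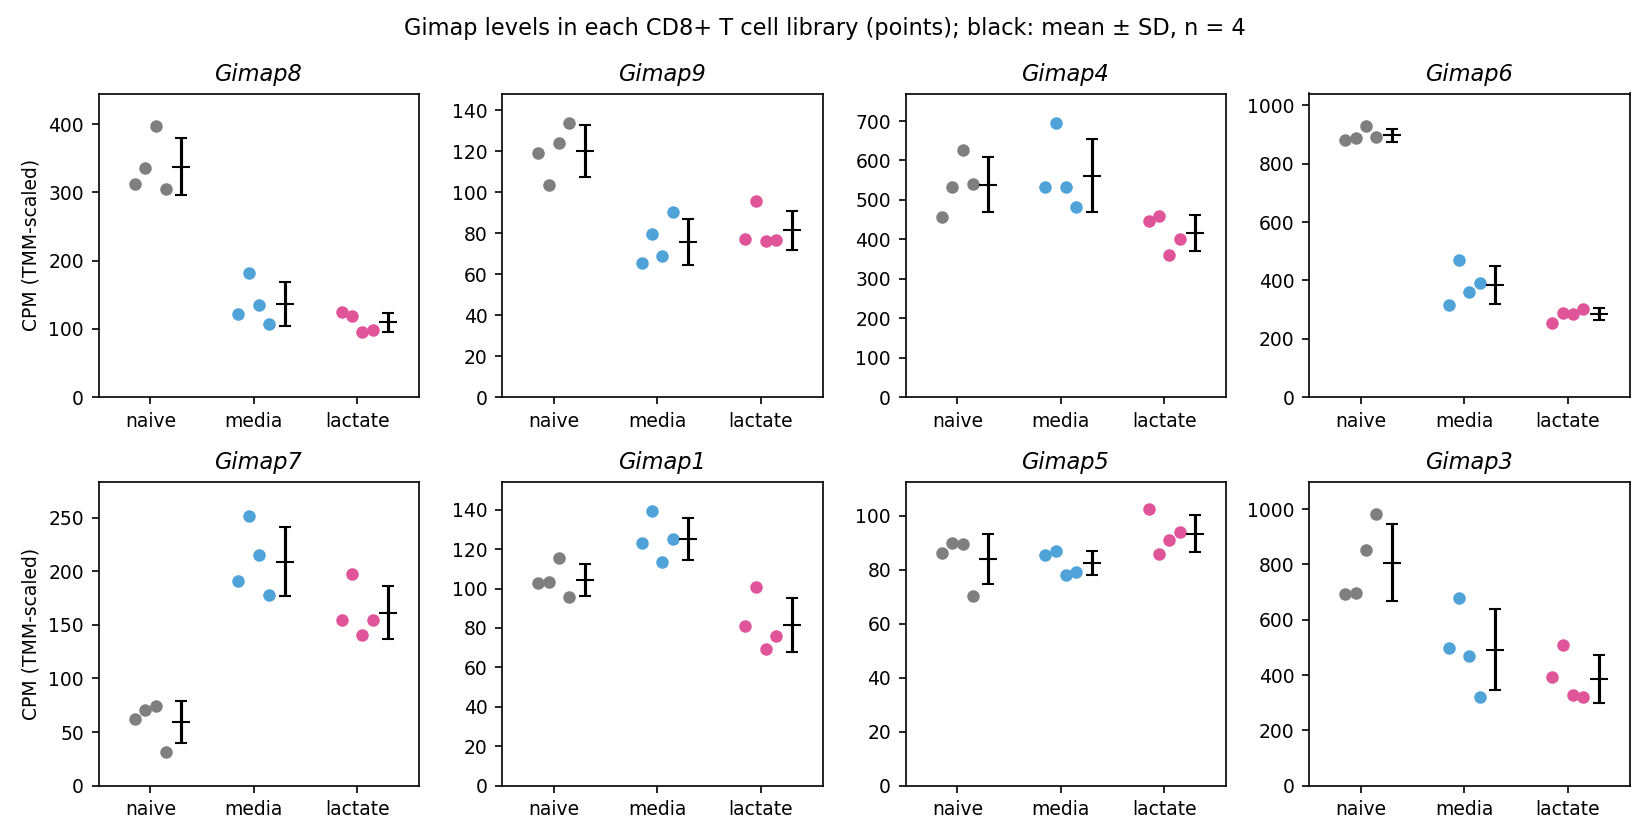
Level of each member (vertical axis, CPM with TMM scaling, from 0) in the naive, media and lactate libraries (points, in replicate order), with the mean ± SD of 4 libraries in black. Gimap6 and Gimap8 are lower in every activated library than in any naive one, Gimap7 is higher in each of them, and Gimap5 overlaps between all groups.

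Activation with sodium lactate was compared with the same naive libraries, so this comparison shares its controls with the one before. Gimap3, Gimap6, Gimap8 and Gimap9 were called lower, and Gimap7 was called higher. Background shares were 32.0% lower and 33.0% higher. Between naive and lactate libraries 5 members did not overlap, against 67.8% of all tested genes. The median log2 fold change was -0.47 over the members and 0.01 over all tested genes.

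Gimap6 reached 255, 289, 287 and 304 CPM with lactate, all below every naive library, at a log2 fold change of -1.66 ± 0.12 against naive (adjusted p 7.53e-08 in edgeR). The lactate libraries of Gimap8 held 124, 120, 95.7 and 98.5 CPM, also below every naive one, and gave -1.62 ± 0.16 (adjusted p 1.56e-06). For Gimap3 the lactate values were 392, 508, 329 and 319 CPM, which gave -1.06 ± 0.22 (adjusted p 0.000703). Low-run libraries gave -0.74 and high-run libraries -1.60, and in the high run naive library 4 was the highest of its group.

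Gimap9 was at 77.2, 95.5, 76.2 and 76.5 CPM with lactate, against 104 CPM in the lowest naive library. The fitted change was -0.56 ± 0.12 (adjusted p 0.00116 in edgeR). Gimap7 was at 154, 197, 140 and 154 CPM with lactate, above every naive library, at 1.43 ± 0.23 (adjusted p 9.70e-05). Leaving out naive library 4 gave 1.21. Gimap1 (-0.35 ± 0.12, adjusted p 0.0156), Gimap4 (-0.37 ± 0.13, adjusted p 0.0229) and Gimap5 (0.15 ± 0.10, adjusted p 0.163) were not called in edgeR. Without naive library 2, naive library 4, media library 4 or lactate library 2, Gimap1 was called, at -0.45, -0.40, -0.42 and -0.47, and without media library 4 Gimap4 was called, at -0.44. DESeq2 and edgeR with DESeq2's size factors called both (-0.45 for Gimap1 and -0.47 for Gimap4), and a minimum of 10 counts in every library called Gimap1 (-0.40).

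The effect of sodium lactate during activation was read from lactate against media. Gimap1 and Gimap6 were called lower and no member was called higher. Of all tested genes 11.1% were called lower and 13.9% higher, and the groups did not overlap for 44.7%. They did not overlap for 3 members, Gimap1, Gimap4 and Gimap6, each with the smallest exact permutation p that 4 against 4 libraries allow (0.0286, two-sided, 70 arrangements). At an unadjusted p under 0.05 in edgeR these 3 were lower and 0 members were higher, against 23.4% lower and 24.8% higher over all tested genes. Each of 25 alternatives, DESeq2 and limma voom among them, also called 0 members higher. The fitted value was below 0 for 6 members and above 0 for Gimap5 and Gimap9, and the median was -0.36, against -0.0016 over all tested genes.

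Gimap1 was at 123, 139, 114 and 125 CPM in media libraries and at 80.9, 101, 69.1 and 75.9 CPM in lactate libraries. Every lactate library lay below every media library. The log2 fold change was -0.62 ± 0.12, with an adjusted p of 0.00151 in edgeR. Within donors that gave both libraries it was lower with lactate in 3 of 3, with log2 differences of -0.72, -0.61 and -0.17. With the donor as a block the change was -0.50 and was no longer called (adjusted p 0.0326 in edgeR), and in a fit of the 8 activated libraries alone it was -0.49 (adjusted p 0.0124). Gimap1os, on the opposite strand, was called higher with lactate, at 17.7 ± 1.07 CPM in media and 24.1 ± 2.78 in lactate libraries (log2 fold change 0.44, adjusted p 0.00818 in edgeR).

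Gimap6 was at 315, 470, 359 and 390 CPM in media libraries and at 255, 289, 287 and 304 CPM in lactate libraries. The groups did not overlap, with 304 CPM in the highest lactate and 315 in the lowest media library. The log2 fold change was -0.43 ± 0.11 (adjusted p 0.00911 in edgeR), close to the threshold. All 3 donor pairs were lower with lactate, at -0.36, -0.30 and -0.31. With the donor as a block it was -0.32 and was not called (adjusted p 0.0264), nor was it in the activated libraries alone (-0.32, adjusted p 0.0164). Leaving out naive library 1, media library 2, 3 or 4, or any lactate library also ended the call, with values from -0.47 to -0.32.

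Gimap4 was lower in every lactate library (445, 460, 359 and 402 CPM) than in any media library (534, 696, 533 and 482 CPM). Its log2 fold change of -0.43 ± 0.13 was close to that of Gimap6 but was not called (adjusted p 0.0220 in edgeR). DESeq2 gave -0.46 and called it (adjusted p 0.00364). With the donor as a block the value was -0.25 (adjusted p 0.193 in edgeR), and in the activated libraries alone it was -0.24 (adjusted p 0.0465). The donor pairs were all lower with lactate, at -0.26, -0.26 and -0.21.

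The other members were not called. Gimap7 (-0.37 ± 0.22, adjusted p 0.210 in edgeR) was lower with lactate in 3 of 3 donor pairs, and Gimap5 (0.18 ± 0.10, adjusted p 0.153) was higher in 3 of 3, by 0.25, 0.26 and 0.14. Gimap3 (-0.34 ± 0.22, adjusted p 0.227), Gimap8 (-0.32 ± 0.16, adjusted p 0.132) and Gimap9 (0.10 ± 0.12, adjusted p 0.554) differed in sign between donor pairs. The sign also differed between library runs for Gimap9 (0.28 among low-run and -0.24 among high-run libraries) and for Gimap3 (-0.28 and 0.01). For Gimap1 the low run gave -0.47 and the high run -0.79, and for Gimap6 it was -0.47 and -0.40.

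**Figure D3:**
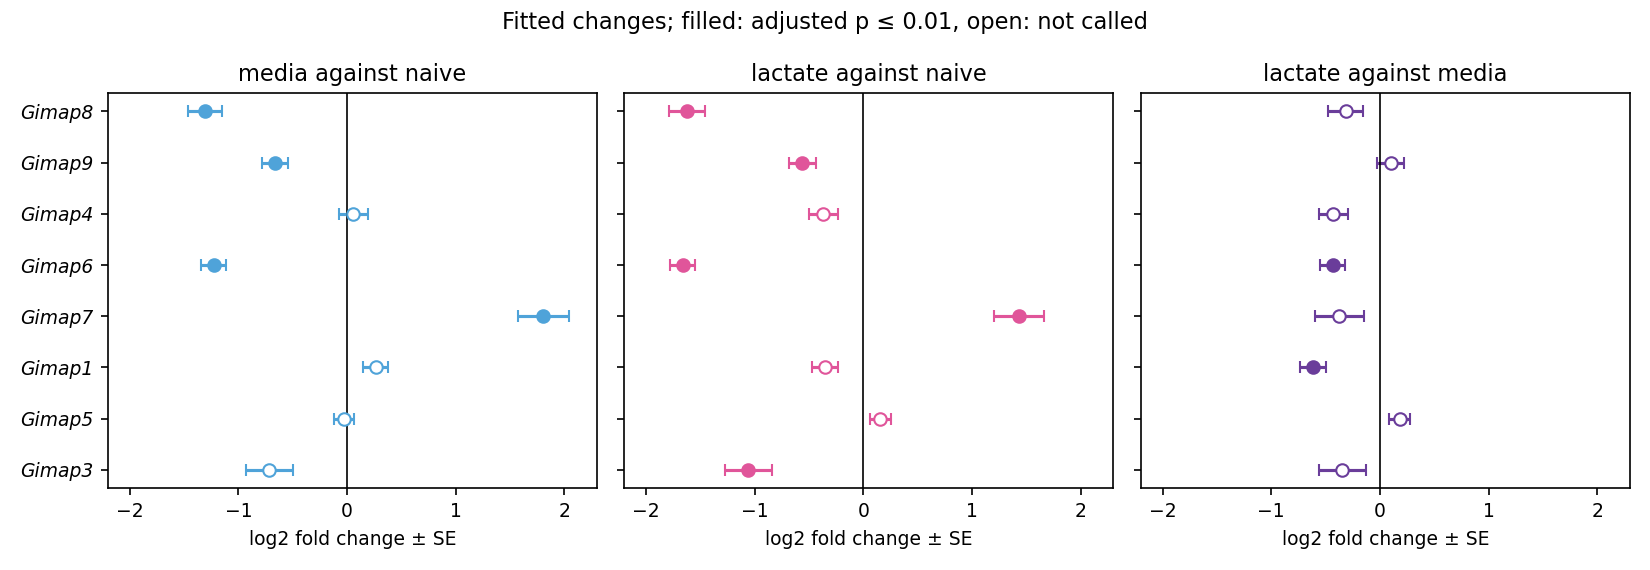
Fitted log2 fold change ± SE (horizontal axis) of each member (rows, in cluster order) in the 3 comparisons, with filled points at an adjusted p of at most 0.01. Gimap7 is the one filled point above 0 in both comparisons with naive libraries, and Gimap1 and Gimap6 are filled for lactate against media.

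**Figure D4:**
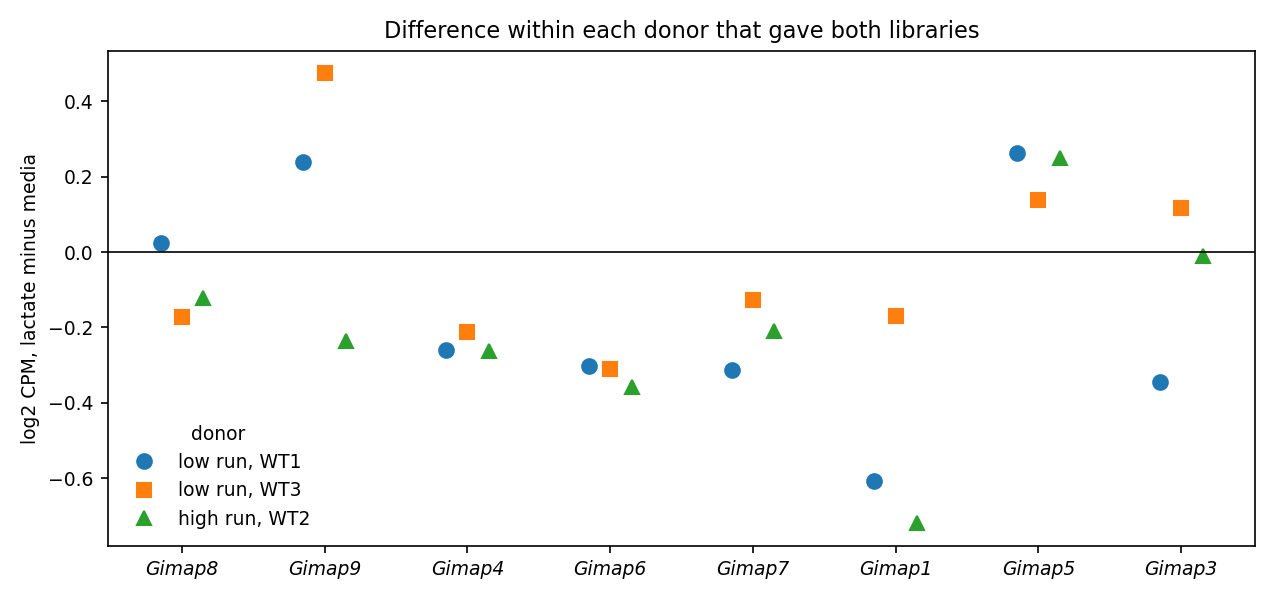
Difference of log2 CPM between the lactate and the media library (vertical axis) of each of the 3 donors that gave both, for each member. Gimap1, Gimap4, Gimap6 and Gimap7 lie below 0 and Gimap5 above 0 in 3 of 3 donors, and Gimap3, Gimap8 and Gimap9 on both sides.

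Other genes in and around the cluster did not all change in the same direction, and neither did the members. Within 250 kb of the cluster, 48 genes are annotated and 13 that are no members were tested. Some of these, Gm28053 and Gimap1os among them, lie inside the span of the cluster. In media against naive libraries, Krba1, Tmem176a and Tmem176b were called lower and Repin1, Zfp775 and Gm28053 higher, so 3 and 3 of 13. Over all tested genes, 29.0% were called lower and 28.5% higher in that comparison. With lactate against naive, 4 were called lower and 3 higher, beside 32.0% and 33.0% of all tested genes. For lactate against media the shares over all tested genes were 11.1% lower and 13.9% higher. With lactate against media, Krba1 was lower (log2 fold change -1.33, adjusted p 0.000130 in edgeR), and Repin1 (0.72, adjusted p 0.00293) and Gimap1os were higher. Within the cluster Gimap7, which rose on activation, lies between Gimap6, which fell, and Gimap1, which was not called against naive.

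**Figure D5:**
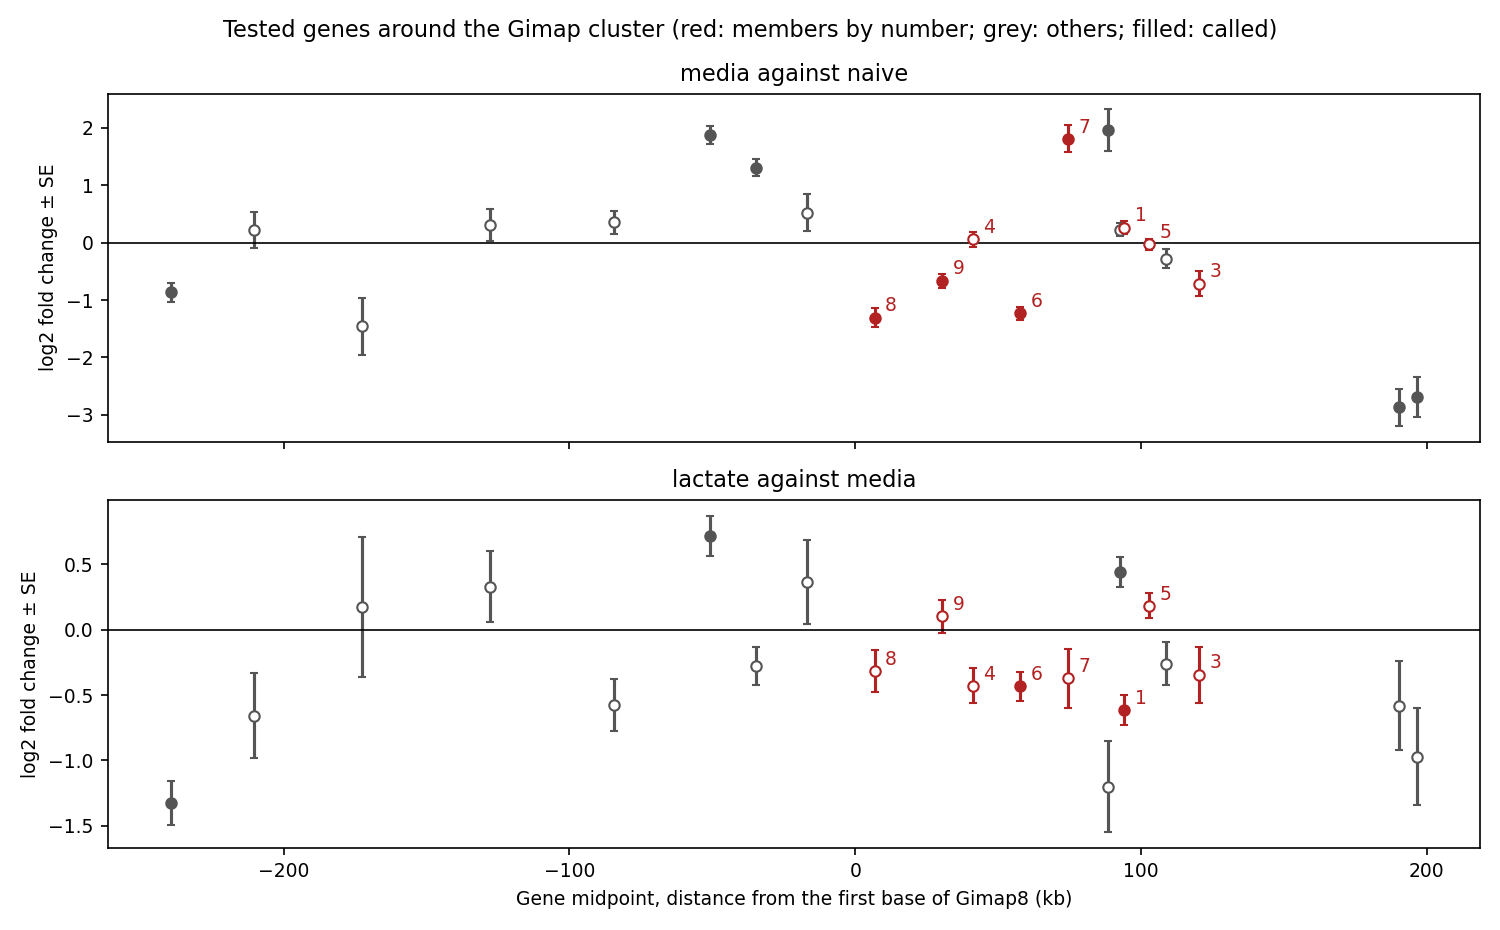
Log2 fold change ± SE (vertical axis) of each tested gene by the distance of its midpoint from the first base of Gimap8 (horizontal axis, kb), in media against naive (top) and lactate against media (bottom), with members in red and labelled by number, other genes in grey and called genes filled. Gimap6 and Gimap7 stand at -1.23 and 1.81 in the top panel with 10.4 kb between their starts.

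Other genes tied to naive T cells or to GIMAP partners were taken from short lists. Of 15 genes of T cell quiescence and homing, 13 were called lower in media than in naive libraries (median log2 fold change -1.87) and 15 in lactate libraries (-2.32). Over all tested genes, 29.0% were called lower in media and 32.0% in lactate than in naive libraries. Klf2, a transcription factor of quiescent T cells, changed by -4.07 and -6.05. S1pr1, a receptor for exit from lymphoid organs, changed by -3.06 and -4.36. In lactate against media, 11.1% of all tested genes were called lower and 13.9% higher. Of the 15 listed, 4 were called lower there, among them Foxo1 (-0.42), Ccr7 (-0.99) and Tsc1 (-0.48), and none higher. The list median was -0.48. With the donor as a block 2 were called. Without naive library 4 there were 8, without media library 2, 3 or 4 there were 1, 2 and 1, and without lactate library 1, 3 or 4 there were 2, 1 and 2. The members' medians in the same 3 comparisons were -0.35, -0.47 and -0.36.

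Of 12 BCL2 family genes, Mcl1 and Bid were called lower in media than in naive libraries, and Bcl2, Bcl2l1, Bak1, Bmf and Bcl2l2 higher. Over all tested genes, the shares in that comparison were 29.0% lower and 28.5% higher. Against naive, lactate libraries had 2 called lower and 6 higher, beside shares of 32.0% and 33.0%. For lactate against media, the shares over all tested genes were 11.1% lower and 13.9% higher. With lactate against media, the death-promoting Bcl2l11 (-1.997), Bbc3 (-0.81) and Bmf (-1.01) were lower. Bcl2l1 (1.31), which encodes the survival protein BCL-XL, was higher, as were the death-promoting Bax (0.97) and Bid (1.20). The donor block gave 2 calls in place of these 6, and there were 3 without media library 2 or lactate library 1, 2 or 3.

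The ATG8 family comprises small proteins of autophagosome membranes. Of its 5 genes, Gabarapl2 (-0.52), Map1lc3a (-1.44) and Map1lc3b (-1.58) were called lower in media than in naive libraries and Gabarapl1 (1.59) higher. Shares over all tested genes were 29.0% lower and 28.5% higher. With lactate, Gabarap (-0.50), Map1lc3a (-1.83) and Map1lc3b (-2.02) were lower than in naive libraries and Gabarapl1 (1.87) was higher, beside shares of 32.0% and 33.0%. Against media, 0 of the 5 were called by edgeR or limma voom and 1 by DESeq2, and at an unadjusted p under 0.05 edgeR had 1 lower (Gabarap) and 1 higher (Gabarapl2). Without naive library 4 there was 1 call. Among all tested genes, edgeR called 11.1% lower and 13.9% higher in lactate against media.

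Genes whose pattern was most like the mean log2 CPM of the members were sought among 10300 other genes with a mean of at least 5 CPM. By Pearson's r over the 12 libraries these were Lrif1 (0.978), Tlr6 (0.969), Gm11131 (0.968), Art2b (0.966) and Txk (0.964), and 158 genes had an r above 0.9. Txk, a kinase of T cell receptor signalling, averaged 151 CPM in naive, 75.2 in media and 32.2 in lactate libraries. The members themselves did not all follow their own mean, with r from 0.886 for Gimap3 to -0.43 for Gimap7. The libraries fall into 3 groups, so these values describe mainly differences between the groups.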

How the data were processed

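RNA-seq libraries from mouse CD8+ T cells were analysed from the count table the authors deposited. Per the labels and the study methods, the authors used bcl2fastq 2.20.0.422 for base calls, mapped 71-base single-end reads to GRCm38 with STAR 2.7.5b, dropped PCR duplicates and counted reads with a unique position over exons with featureCounts. The deposited values are whole-number counts per gene, with no normalization.

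Genes with at least 1 CPM in 3 libraries were kept, 13767 of 13780. One quasi-likelihood model with 3 groups was fitted in edgeR 4.0.16 (R 4.3.3) to all 12 libraries, scaled by TMM, and tested two-sided. P-values were adjusted by Benjamini-Hochberg across the 13767 genes, and the call was set at 0.01. Each SE was obtained from the fitted log2 change and its F statistic. TPM were computed with the deposited gene lengths. Log2 CPM used a prior count of 2. Single members were also tested by exact permutation (SciPy 1.17.1), which cannot go below 0.0286. Alternatives were the likelihood ratio test, DESeq2 1.42.0, limma 3.58.1 (voom), DESeq2's size factors or total counts as scaling, no filter or 10 counts in every library, the compared groups alone, title number or donor as a block, library run as a term, an adjusted p of 0.05, and each library left out. The model was tested on simulated counts for lactate against media (13337 genes). It recovered 51% of 100 genes changed by a log2 of 1 and 84% of 100 changed by 2, with 0 false calls. Of these genes, 92 and 99 passed the filter. The largest member change in that comparison was smaller (Gimap1, -0.62), and the simulated libraries held no donor pairs. Recovery of changes of the members' size was not tested.

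Groups, donors and library numbers were read from the labels, with donor tags taken separately in each run of library numbers because they begin anew there. By these tags, media and lactate libraries of 1 donor come from the same mouse. Their deviations from the group means correlated at 0.374, 0.211 and 0.553 across genes. Media and lactate libraries of different donors in the same run correlated at -0.0249 to 0.371. These ranges overlap, so the correlations cannot show which libraries share a mouse, and the pairs rest on the tags. All 8 members, the genes within 250 kb, genes of the lists and the 5 genes most like the mean of the members could be named, and 1 of these is not reported here. The members and lists were chosen with earlier results of these data known. Total counts were between 14726904 and 21478137 per library. Over all genes, the fit put the variation between libraries of a group, beyond that of counting, at 23.5%. Values after ± are the SD between libraries for levels and shares and the SE for fold changes. Both rest on these libraries alone. For all 8 members the gene length in the table equals the exon union in GENCODE M21.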

Additional observations from a re-analysis of the deposited data

Results flagged for a closer look

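Gimap9 in lactate library 2 stood apart from the other lactate libraries, at 95.5 CPM against 76.2 to 77.2 CPM in the other 3. The gap to the nearest library was 0.949 of the range of the group, above Dixon's critical value for groups of 4. Of 24 groups of 4 libraries examined, 1 had such a sample, and chance gives about 1 in 20.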

How the results depend on the processing

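Across 568 comparisons of a member's fold change with an alternative, 519 kept the direction and the side of the threshold, and 17 of 24 member values did so in every alternative. The count of members lower in lactate than in media was 2. It was 3 with DESeq2 and at an adjusted p of 0.05, which both added Gimap4. It was 1 when the compared groups were fitted alone, 1 with the title number as a replicate block, 1 with the library run as a term, 0 with the donor as a replicate block in all libraries, and 0 with that block in the activated libraries alone, an alternative chosen after seeing the data. Leaving out 1 library gave 1 to 2. Over all genes this comparison had 3451 calls, 992 with the donor block, 3654 with that block in the activated libraries alone, and 5461 at an adjusted p of 0.05. Gimap4 in media against naive, at 0.06, was not called in any alternative and changed sign with DESeq2 (-0.0048) and with DESeq2's size factors in edgeR (-0.0048), and leaving out 1 library gave -0.0606 to 0.0840. Gimap3 in media against naive was called in 13 of 23 alternatives. Quiescence genes called in lactate against media numbered 1 to 8, BCL2 family genes 2 to 6 and ATG8 genes 0 to 1. The causes were not tested. Summing rows of a repeated symbol did not apply, since each member has 1 row. Libraries that share a title number correlated at 0.374, 0.297, 0.0038 and 0.553 in their deviations from the group means, and these numbers do not mark a shared donor throughout.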
